A study of Rattus norvegicus with 2 samples.

Results

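Heat shock proteins and chaperones were followed here through 10 genes: Hspa1a, Hspb1, Hsp90aa1, Hsph1, Dnajb1, Cryab, Hspa8, Hspa5, Hspd1 and Hspe1. Members were the array probes outside the controls whose transcript accession matched one of these genes in the rat RefSeq table. Probes were found for 9 of the 10 genes, 17 probes in all, against 16581 named genes on the array. Dnajb1, the HSP40 co-chaperone that delivers clients to HSP70, had no matched probe and was not analysed here. All 9 genes were well above background on both arrays, as were 13428 named genes in all, so no member was lost to the filter on dim probes.

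The tissue was the NTS, or nucleus of the solitary tract, where baroreceptor and visceral afferents end in the medulla. The animals were 9-week-old female and male spontaneously hypertensive rats (SHR), a strain that becomes hypertensive without treatment. Both groups were killed by ether inhalation and decapitation, and 1 person made every dissection. For each sex, 100 ng of RNA from each of 5 rats was pooled, labelled with Cy3 and read on 1 array, so there were 2 arrays in all. With 1 array per sex there was no test: each difference compares a female pool with a male pool, and the variation between animals is unknown. Both groups were SHR, so no value here compares hypertensive with normotensive rats. The values describe a tissue block. In such tissue fewer cells of a type and less RNA per cell cannot be told apart.

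Heat shock proteins bind unfolded protein and keep it from aggregating, or fold it in cycles driven by ATP. After heat, hypoxia, ischaemia or other stress, heat shock factor 1 (HSF1) binds heat shock elements, inverted repeats of GAA and TTC, and switches on the inducible genes. The constitutive members work without stress: Hspa8 in the cytosol, Hspa5 in the endoplasmic reticulum, and Hspd1 with Hspe1 in mitochondria. In the brain, inducible HSP70 is known to be low at rest and to appear in stressed neurons, glia and vessels, while HSP27 (Hspb1) is known in motor neurons, glia and vessel walls. The genes were split by textbook knowledge into inducible (Hspa1a, Hspb1, Hsp90aa1, Hsph1, Dnajb1 and Cryab) and constitutive (Hspa8, Hspa5, Hspd1 and Hspe1). Hsp90aa1 and Cryab are also abundant without stress, so the split is not sharp. On the constitutive side, the promoter windows of Hspa8, Hspd1 and Hspe1 hold matches to the heat shock element, as given below.

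Promoter windows were searched for exact matches to the heat shock element and other motifs. Each is the 250 bases before the annotated gene start, from RefSeq on build GRCr8, and 8 of the 10 genes had one. Those shown are the 2 genes that differed between the arrays, Hspa1a and Hspb1, and 4 that differed little: Hsph1, Hspa8, Hspa5 and Hspe1. Hspa1a is at chr20:3859506-3859755 on the plus strand and Hspb1 at chr12:26432302-26432551 on the minus strand. Hsph1 is at chr12:10427118-10427367, Hspa8 at chr8:50080264-50080513, Hspa5 at chr3:38452766-38453015 and Hspe1 at chr9:64084077-64084326, all on the plus strand. Each sequence runs 5′ to 3′, and capitals mark every match to the motifs described after the sequences.
Hspa1a: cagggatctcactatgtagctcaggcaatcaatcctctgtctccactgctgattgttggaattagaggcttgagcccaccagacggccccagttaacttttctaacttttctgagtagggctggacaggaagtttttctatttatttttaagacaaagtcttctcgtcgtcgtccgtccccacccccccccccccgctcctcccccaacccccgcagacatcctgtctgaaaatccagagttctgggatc
Hspb1: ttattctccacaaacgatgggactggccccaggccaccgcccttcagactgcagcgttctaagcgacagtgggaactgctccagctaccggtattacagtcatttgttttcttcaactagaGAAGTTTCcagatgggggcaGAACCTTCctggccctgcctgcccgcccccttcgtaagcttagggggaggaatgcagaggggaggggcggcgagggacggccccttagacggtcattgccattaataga
Hsph1: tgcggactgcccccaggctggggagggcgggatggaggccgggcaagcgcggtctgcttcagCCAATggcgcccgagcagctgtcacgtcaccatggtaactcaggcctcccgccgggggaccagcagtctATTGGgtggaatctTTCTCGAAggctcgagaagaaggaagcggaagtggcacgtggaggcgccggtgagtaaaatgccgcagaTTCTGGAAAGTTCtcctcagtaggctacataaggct
Hspa8: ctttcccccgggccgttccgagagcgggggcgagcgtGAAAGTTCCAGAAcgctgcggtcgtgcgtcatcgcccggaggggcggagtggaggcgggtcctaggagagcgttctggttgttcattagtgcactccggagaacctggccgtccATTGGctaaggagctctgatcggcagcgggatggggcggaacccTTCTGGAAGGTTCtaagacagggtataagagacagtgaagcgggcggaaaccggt
Hspa5: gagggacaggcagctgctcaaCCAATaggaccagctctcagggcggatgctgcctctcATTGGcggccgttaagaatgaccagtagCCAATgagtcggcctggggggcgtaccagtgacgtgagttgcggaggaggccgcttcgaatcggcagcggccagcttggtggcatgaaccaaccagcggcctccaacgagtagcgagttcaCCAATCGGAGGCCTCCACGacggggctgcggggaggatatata
Hspe1: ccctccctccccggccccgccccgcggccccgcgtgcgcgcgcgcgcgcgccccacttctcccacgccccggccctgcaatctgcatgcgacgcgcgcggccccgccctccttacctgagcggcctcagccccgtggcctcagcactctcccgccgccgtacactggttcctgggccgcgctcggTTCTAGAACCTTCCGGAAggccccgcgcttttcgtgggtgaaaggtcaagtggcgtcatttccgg

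The motifs were searched on both strands. The heat shock element was searched as 3 units, GAA, TTC and GAA with 2 free bases between neighbours, and as its pairs GAANNTTC and TTCNNGAA, which lie inside the longer motif wherever it occurs. The endoplasmic reticulum stress element was CCAAT, then 9 free bases, then CCACG, so it holds a CCAAT box; CCAAT and the TATA box TATAAA were searched by themselves too. The 3-unit motif was in 0.663% of all 33469 promoter windows, GAANNTTC in 7.23%, TTCNNGAA in 7.48%, the endoplasmic reticulum stress element in 0.0657%, CCAAT in 34.0% and TATAAA in 12.9%. Hsph1 had 1 match to the 3-unit motif and Hspa8, Hspd1 and Hspe1 had 2 each. Hspd1 and Hspe1 are neighbours read in opposite directions, and their windows share 211 bases, so both count the same pair of overlapping matches. Hspb1 had no 3-unit match and 2 matches to GAANNTTC, which begin at bases -129 and -109 counted from the start. Hspa5 had the endoplasmic reticulum stress element, which begins at base -43. No motif was matched in the Hspa1a window, which says only that these letters are not in these 250 bases before the annotated start. TATAAA was matched in none of the 8 windows.

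Hspa1a, the stress-inducible cytosolic HSP70, was lower in the female pool by 3.71-fold. Signals are given as scaled signal, on which the 75th percentile of each array is 100, and differences are female minus male on the log2 scale. The first Hspa1a probe read 76.8 in the female pool and 279 in the male pool. The second probe read 8.20 in the female pool and 30.95 in the male pool. Each probe had 1 spot. Although the probes differ in brightness, their differences were -1.86 and -1.92, and their mean was -1.89. Hspb1, which encodes the small heat shock protein HSP27, was lower in the female pool by 1.82-fold, a difference of -0.86.

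Hspb1 had 1 probe, printed in 10 spots. On the female array the lowest spot read 66.0, the median 69.6 and the highest 72.6. On the male array the lowest read 118, the median 127 and the highest 131. The spot ranges did not overlap, and all 10 positions were lower on the female array. Of all 1326 probes with at least 8 measured spots, 7.01% were lower on the female array with no overlap. The SD of the difference over spots was 0.06, which covers spotting and hybridisation within an array and not animals, pools or labelling. Here and below, this SD combines the spot SDs of the female and male arrays without pairing spots by position.

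**Figure D1:**
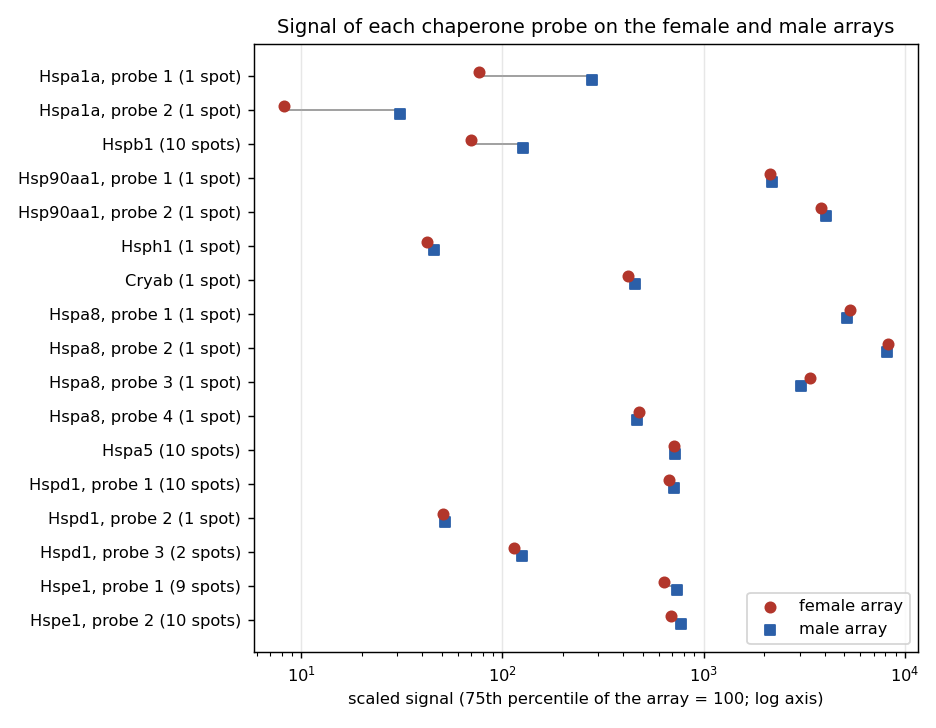
Scaled signal of each of the 17 chaperone probes (log axis) on the female array (circles) and the male array (squares), with a grey line joining the pair; probes with repeated spots are means on the log2 scale. The pairs stand apart for both Hspa1a probes (76.8 against 279, and 8.20 against 30.95) and for Hspb1 (69.5 against 126) and lie close together for the others; brightness is not comparable between probes.

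Of the 9 measured members, 2 were at least 1.5-fold lower in the female pool and none was 1.5-fold higher. Among all 13428 measured named genes, 0.797% were 1.5-fold lower and 1.5% were 1.5-fold higher. These shares depend on scaling: 107 genes were lower and 201 higher, against 157 and 137 after quantile normalization, 153 and 140 after loess, and 84 and 269 after centring on spike-in controls. At 2-fold, where 0.149% of genes were lower in the female pool, only Hspa1a remained. Hspa1a and Hspb1 were among the genes known to differ when the members were chosen, so the count is a description.

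Noise falls with brightness, so each gene was also set beside genes of like signal. Hspa1a lay in the third quartile of signal counted from the dimmest, where 0.387% of 3357 genes were 1.5-fold lower, and its difference was the lowest of those genes. Hspb1 lay in the brightest quartile, where 0.328% were 1.5-fold lower, and it ranked 2 from the lowest. Differences of all genes had an SD of 0.16 in the third quartile and 0.13 in the brightest. Over the whole array Hspa1a ranked 5 from the lowest and Hspb1 ranked 37.

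Agreement within a gene was read from probes and spots. Of 3050 genes with at least 2 measured probes, 0.197% (6 genes) had every probe 1.5-fold lower in the female pool. Ordered by the probe nearest to 0, Hspa1a was the lowest of them. Of 1326 probes with at least 8 measured spots, 0.98% were 1.5-fold lower in the female pool, and Hspb1 ranked 3 from the lowest. Hspa1a has a near-identical neighbour, Hspa1b, for which no probe was named here, and its annotated span overlaps that of Hspa1l in GRCr8. Probe sequences were not used here, so the signal may come from Hspa1a, Hspa1b or both.

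**Figure D2:**
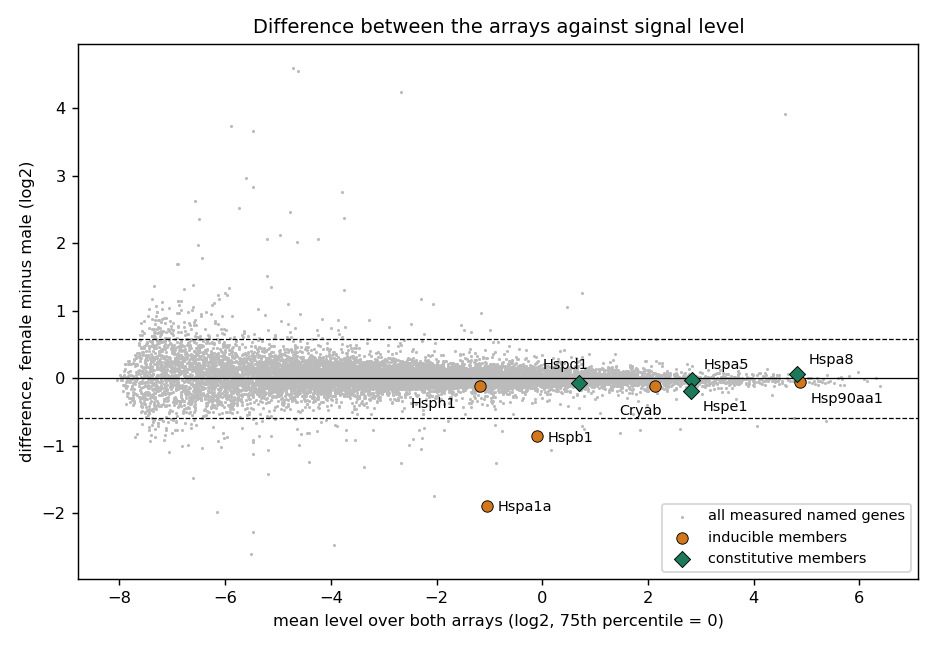
Difference between the arrays (female minus male, log2) against the mean level over both arrays (log2, with the 75th percentile at 0) for 13428 named genes in grey, inducible members as circles and constitutive members as diamonds. Dashed lines mark 1.5-fold; Hspa1a at -1.89 and Hspb1 at -0.86 lie below the lower line, and the other 7 members lie between the lines.

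The other inducible members differed much less. Hsp90aa1, the inducible cytosolic HSP90, read 2145 and 3856 with its 2 probes on the female array, against 2189 and 4041 on the male array, a mean difference of -0.05. Hsph1, the HSP110 that exchanges nucleotide on HSP70, read 42.4 in the female pool and 45.8 in the male pool, a difference of -0.11 from 1 spot. Cryab, alpha-B crystallin, a small heat shock protein abundant in oligodendrocytes and astrocytes, read 421 in the female pool and 458 in the male pool, a difference of -0.12, also from 1 spot. These 3 genes were within 1.09-fold. For comparison, repeated spots gave a median SD of the difference of 0.08 in the third quartile of signal and 0.06 in the brightest quartile.

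The cytosolic HSC70 gene Hspa8, which folds and sorts protein in unstressed cells, had 4 probes. They read 5333, 8247, 3371 and 477 on the female array, against 5161, 8207, 3043 and 466 on the male array. All 4 were slightly higher on the female array, by 0.0070 to 0.15, with a mean of 0.06. Hspa8 was thus the 1 member with a positive difference, within 1.04-fold. Hspa5, which encodes BiP, the HSP70 of the endoplasmic reticulum, read 711 in the female pool and 720 in the male pool, a difference of -0.02 with an SD over 10 spots of 0.04. Its spots ranged from 690 to 732 on the female array and from 696 to 751 on the male array, so they overlapped.

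Hspd1 and Hspe1 encode HSP60 and HSP10, the barrel and the lid of the mitochondrial chaperonin. The 3 Hspd1 probes read 676, 50.9 and 115 on the female array, against 710, 51.8 and 125 on the male array. The mean difference was -0.07, and spots of the probe with 10 of them overlapped, from 615 to 706 on the female array and from 662 to 751 on the male array. Hspe1 read 637 and 691 with its 2 probes on the female array, against 735 and 776 on the male array, with differences of -0.21 and -0.17. The spots of neither Hspe1 probe overlapped: the first ranged from 615 to 659 on the female array and from 697 to 789 on the male array. The second ranged from 666 to 725 on the female array and from 755 to 812 on the male array. As given for Hspb1, 7.01% of such probes had no overlap in this direction. This 1.14-fold difference exceeded the spread of spots (SD 0.07 and 0.06), and Hspe1 ranked 1043 from the lowest of all measured named genes, 90 of the 3357 in the brightest quartile, and its lower probe 43 of the 1326 probes with repeated spots.

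**Figure D3:**
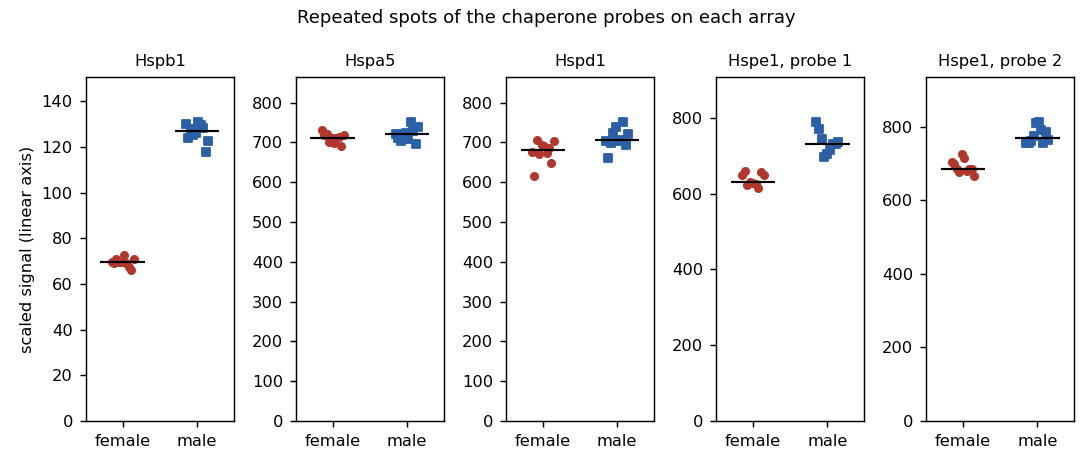
Scaled signal (linear axis from 0) of every spot of the 5 chaperone probes with at least 8 measured spots, female array left and male array right in each panel, with the median as a black line. Spots of Hspb1 and of both Hspe1 probes do not overlap between the arrays, and those of Hspa5 and of this Hspd1 probe do.

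Set against each other, the inducible members had a median difference of -0.12 (5 genes, from -1.89 to -0.05) and the constitutive members -0.05 (4 genes, from -0.19 to 0.06). The median over all measured named genes was 0.02. Hsp90aa1, Hsph1 and Cryab lay inside the range of the constitutive members, and Hspa1a and Hspb1 lay below it. The medians differed by -0.07, while the means, at -0.61 and -0.05, differed by -0.55, since 2 genes carried the inducible side. Moving Hsp90aa1 to the constitutive side or leaving out Cryab gave -0.44 for the difference of medians.

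Other chaperone and stress response genes showed no difference of the size seen in Hspa1a and Hspb1. Of 152 such genes in 10 lists, 138 were measured and none was 1.5-fold higher or lower in the female pool. Of all measured named genes 2.29% were past 1.5-fold in either direction, with 6.97% in the dimmest quartile. Most of the 138 were brighter: 41 lay in the third quartile, where 0.685% were past it, and 66 in the brightest, where 0.417% were. A count of 0 is thus near the share of genes of like signal. The 138 genes had a median of -0.0042 and a range of -0.23 (Hsbp1l1) to 0.56 (Hspa1l). Hspa1l, the third HSP70 of the Hspa1a locus, was dim, at 1.42 in the female and 0.96 in the male pool, and went past 1.5-fold after centring on spike-in controls, at 0.63. Ern1, which encodes the endoplasmic reticulum stress sensor IRE1, was also dim, at 1.34 in the female and 0.95 in the male pool, a difference of 0.49. Both were chosen after their values were seen.

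The machinery around HSP70 and HSP90 was close to 0, in lists that also hold genes of mitochondria and the endoplasmic reticulum. The median was 0.05 for 9 other HSP70 and HSP110 genes, -0.03 for 19 HSP90 genes and co-chaperones, -0.01 for 36 other DNAJ genes and -0.0021 for 10 exchange factors of HSP70. Hspa4, an HSP110, read 557 in the female and 585 in the male pool. Hsp90ab1, the constitutive HSP90, read 1189 in the female and 1230 in the male pool. Stub1, the ubiquitin ligase that marks HSP70 and HSP90 clients, read 1344 in the female and 1369 in the male pool. Dnaja1 and Dnajc8 were at -0.09 and 0.02, Bag3, a stress-induced partner of HSP70 and small heat shock proteins, was at -0.15, and Sil1 was at -0.00014. All of these were within 1.11-fold.

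Among 6 other small heat shock proteins the median was 0.01. It was -0.13 when only the brighter 50% of probes were kept, which drops dim genes such as Hspb3 from the list. Hspb2 was at -0.14 and Hspb6 at 0.13, so the family of Hspb1 did not share one direction. The 6 heat shock factors and their regulators had a median of -0.07, which became 0.03 with the brighter 50% of probes, without dim genes such as Hsbp1l1. Hsf1 itself read 55.7 in the female and 51.7 in the male pool, a difference of 0.11 with both probes above 0, and the HSF1-binding gene Hsbp1 was at -0.08. Of 29 genes of the endoplasmic reticulum and its stress response, the median was 0.03, with the stress transcription factor genes Atf4 at -0.11 and Ddit3 at -0.17 and the chaperone Hyou1 at 0.15. The 15 mitochondrial chaperones and proteases had a median of 0.02, with Trap1 at -0.02 and Lonp1 at 0.0063. The 12 CCT and prefoldin subunits, which fold actin and tubulin, had a median of -0.01, with Tcp1 at 0.0051 and Cct3 at -0.0044.

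The list of other HSF1 targets, known mostly from human and mouse cells, leaned slightly to one side. Of its 21 measured genes 18 were below 0, with a median of -0.09, where 44.5% of all measured named genes were below 0 and 52.9% of those in the brightest quartile, which held 16 of the 21. The range was -0.17 (Zfand2a) to 0.12 (Chordc1). The 18 include Cirbp (-0.14) and Rbm3 (-0.10), which encode cold-inducible proteins, so the count is not one of heat-induced genes only. The ubiquitin gene Ubb was at -0.05. The median stayed below 0 in all 12 other settings, from -0.12 after median scaling, with 19 genes below 0, to -0.02 after centring on spike-in controls, with 12. Both of these move all genes by 1 constant. Bag3, Dnaja1, Hspa4 and other genes are on more than 1 list.

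**Figure D4:**
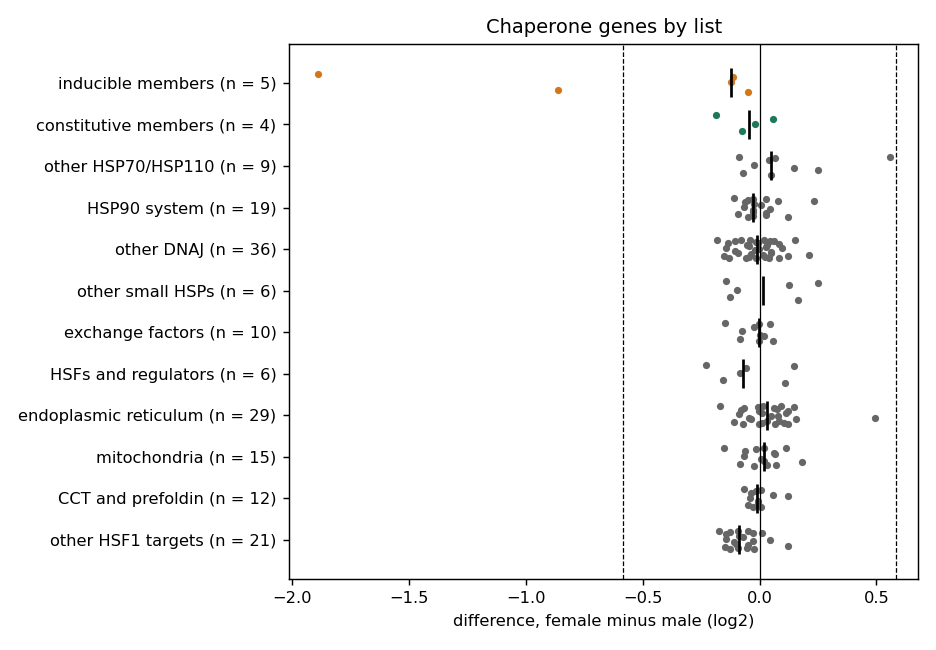
Difference between the arrays (female minus male, log2) of each measured gene, for the inducible and constitutive members and the 10 lists of other chaperone genes; short vertical lines are medians and dashed lines mark 1.5-fold. Hspa1a (-1.89) and Hspb1 (-0.86) lie outside the dashed lines, and all 138 other chaperone genes lie inside them.

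Genes with a match to the heat shock element before the annotated start were counted in the same way. Of 10403 measured named genes with a promoter window, 2.09% were past 1.5-fold in either direction. Of the 40 with the 3-unit motif none was, with a median of -0.04 and a range of -0.42 to 0.33. With so few genes, 0 is near the share of 2.09%, so this count says little about genes with the motif. Hspa1a is not among the 40, since no motif was matched in its window. Hsph1, Hspa8, Hspd1 and Hspe1 did have the motif. With the pair GAANNTTC, 16 of 505 genes were past 1.5-fold, a share of 3.17%, with 11 higher and 5 lower in the female pool. Of all 10403 genes, 137 were higher and 80 lower, so more were higher there too. Whether the share of 3.17% differs from 2.09% was not tested. Hspb1, a member known to differ, was the lowest of the 505. With the pair TTCNNGAA, 13 of 617 genes were past 1.5-fold, 9 higher and 4 lower, a share of 2.11%. With the endoplasmic reticulum stress element none of 15 genes was, again too few to tell from the share of all genes, and Hspa5 was at -0.02.

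Over 2 arrays, likeness can only mean a like difference at a like level. For Hspa1a, among 3170 measured genes within 1 log2 unit of its level, the nearest was Olfml3, at 35.3 in the female and 84.3 in the male pool. Its difference of -1.26 was still 0.63 away, and Hspb1 and Tcn2 followed. For Hspb1, among 2521 genes, the nearest were Tcn2, which encodes the vitamin B12 carrier transcobalamin 2, and the globin genes Hbb and Hba-a2. Tcn2 read 45.04 in the female and 77.2 in the male pool, a difference of -0.78, while Hbb was at -0.75 and Hba-a2 at -0.71.

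The pools also differed in markers of other cells. Of 8 measured erythroid markers, 7 were 1.5-fold lower in the female pool, and their summed scaled signal was 4913 in the female and 7757 in the male pool. Hbb read 134 in the female and 225 in the male pool and Alas2 read 16.5 and 27.5 in the same order, while Epb42, Hemgn and Rhag were not well above background on both arrays. Of 15 measured choroid plexus markers, 14 were 1.5-fold higher in the female pool and 1 was lower, with sums of 9842 in the female and 796 in the male pool. Ttr, which makes up most of both sums, read 9325 in the female and 617 in the male pool and Sostdc1 67.9 and 3.61. The part of blood or choroid plexus in the Hspa1a and Hspb1 differences was not tested.

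Some of the cell types in which Hspb1 or Cryab is known were set beside them. Glia are among these types too. Astrocytes (6 of 10 markers below 0, median -0.04) and microglia (7 of 10, median -0.02) are given with the other lists. Of all measured named genes 44.5% were below 0, and 52.9% of those in the brightest quartile. Some of these counts depend on scaling. After centring on spike-in controls 4 astrocyte, 3 microglial and 7 endothelial markers were below 0. Median scaling put 7 astrocyte and 9 microglial markers below 0. Of 10 markers of vagal and hypoglossal motor neurons 9 were below 0, with a median of -0.25 and sums of 628 in the female and 741 in the male pool. Chat was at -0.27 and Slc18a3 at -0.35, and the peptide genes Calca and Uts2, chosen after their values were seen, were at -1.31 and -1.24. All 16 oligodendrocyte markers were below 0, with a median of -0.20 and sums of 3229 in the female and 3771 in the male pool; Mbp was at -0.08. Of 9 smooth muscle and pericyte markers 8 were below 0 (median -0.10, sums 105 in the female and 116 in the male pool), with Acta2 at -0.06 and Myh11 at 0.25, and Cnn1 was not well above background on both arrays. Of 11 endothelial markers 9 were below 0 (median -0.12, sums 229 and 267 in the same order), with Cldn5 at -0.27 and Pecam1 at -0.06. The part of these cells in the members' differences was not tested.

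The other marker lists were as follows. The 10 astrocyte markers had a median of -0.04 (sums 11734 in the female and 11956 in the male pool), with Gfap at -0.20 and Aqp4 at -0.11. The 10 microglial markers had -0.02 (sums 1058 and 1081), with Aif1 at -0.15 and Itgam at -0.01, and the 10 neuron markers -0.04 (sums 6648 and 6861), with Rbfox3 at 0.02 and Snap25 at -0.07. The 11 meningeal markers had 0.14 (sums 660 and 808), with Col1a1 at 0.04 and Col1a2 at -0.76. Beside Col1a2, which was 1.5-fold lower in the female pool and sets the direction of the sums, Slc47a1 (1.17) and Igf2 (0.80) were 1.5-fold higher, both chosen after their values were seen. Of 16 immediate early genes 14 were below 0, where 44.5% of all measured named genes were, with a median of -0.17. Their sums were 175 in the female and 197 in the male pool, with Fos at -0.62 and Egr1 at -0.13. Of 10 markers of dorsal medulla neurons 7 were measured, with a median of 0.05, and Th read 532 in the female and 602 in the male pool; Tlx3 and Hoxa5 were among those with no named probe.

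**Figure D5:**
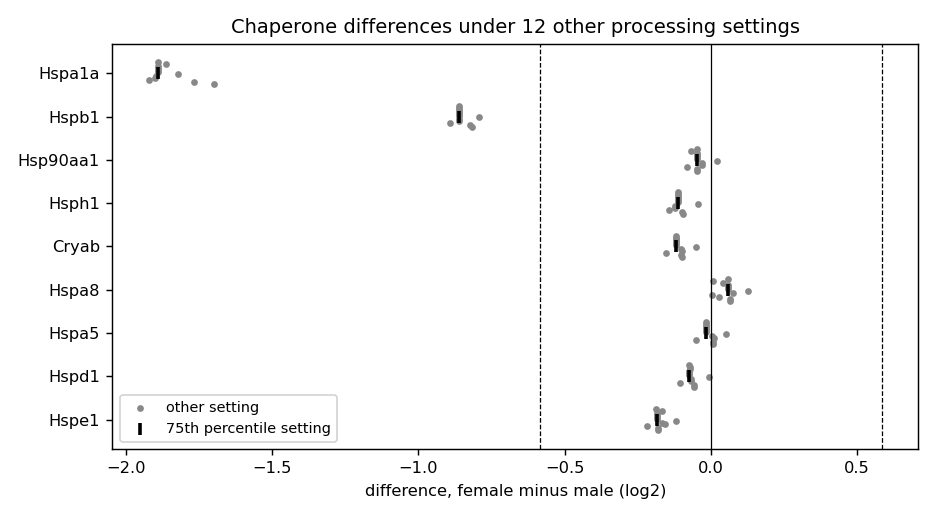
Difference (female minus male, log2) of the 9 measured members in the setting used in the text (black bars) and under 12 other processing settings (grey points); dashed lines mark 1.5-fold. Hspa1a stays between -1.92 and -1.70 and Hspb1 between -0.89 and -0.79, and no setting takes another member past 1.5-fold.

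Both differences were followed across 12 other settings of background correction, scaling, filtering and probe summary. Hspa1a ranged from -1.92 to -1.70, or 3.79-fold to 3.25-fold, and Hspb1 from -0.89 to -0.79, or 1.86-fold to 1.73-fold. Both were past 1.5-fold in all 12. For Hspb1, with 1 probe, the settings of filtering and probe summary left the value at -0.86, so they added no check of it. Of the 7 others, Hsph1, Cryab, Hspd1 and Hspe1 stayed below 0 and Hspa8 above 0 in all 12, but several of these settings leave the values nearly as they were. Centring on spike-in controls moves all genes by 1 constant, with the median of all genes at 0.08, so the value of 0.02 that it gave Hsp90aa1 is no change relative to other genes. Hspa5 lay on either side of 0, from -0.05 to 0.05.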

How the data were processed

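RNA pools of the NTS of 5 female and 5 male SHR were read on 1 Agilent 1-colour array per sex, both on 1 slide and in 1 scan per the file headers. Each deposited spot intensity is linear and was already background-corrected by Agilent Feature Extraction, version 11.5.1.1 per the file headers and 9.1 per the submitters' processing notes. The authors' deposited value table held the same intensity divided by 1 constant per array, 23.4 for the female and 22.8 for the male array (SD of the log2 ratio 0.00034 and 0.00046), with column medians of 19.6 and 19.4; that table is linear too, with no centring over genes.

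Of 58717 spots outside the controls, 82.3% (female array) and 80.1% (male array) were well above background. The 75th percentile of signal was 1238 and 1169 times the median of negative controls in the same order, and no spot was saturated. The number of arrays limits the precision. Each array's 75th percentile was subtracted from log2 of the processed signal. Control spots and spots with an outlier flag on either array were left out (1 of 63 member spots). Repeated spots were averaged per probe, and a gene is the mean of its probes well above background on both arrays.

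Accessions without versions were matched to RefSeq genes of GRCr8, which named 21109 of 45595 probes. The array design uses an older assembly, so that table gave names and neighbours only; promoter coordinates belong to the printed GRCr8 sequences. No test was possible with 1 array per sex; folds of 1.5 and 2 were fixed. Normexp used an offset of 50 on each spot's median signal, since the files hold no mean signal.

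The members and lists were chosen with earlier results of these data known. All members are named, with, from each chaperone list, genes past 1.5-fold (at most 4) or else the 2 brightest, from each marker list the first 2, and the 3 genes nearest to Hspa1a and to Hspb1. Some genes that this rule names are not reported here. The summary was checked on simulated arrays with known folds and spot noise of equal size at all signal levels. They held no variation between pools or in labelling, so this checks the calculation only. Alternatives are listed in the closing section. Tools were Python 3.11.15, numpy 2.4.6, pandas 2.3.3, matplotlib 3.10.9, R 4.3.3 and limma 3.58.1.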

Additional observations from a re-analysis of the deposited data

How the results depend on the processing

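The settings tried were normexp and no background correction, median, quantile, loess and spike-in scaling, the authors' table, no filter on dim probes, the brighter 50% of probes, the median over probes, the brightest probe and outlier-flagged spots kept, all planned. The count of 2 members lower in the female pool and 0 higher held in all 12 of these, and a threshold of 2-fold left 1 lower. Median scaling, spike-in centring and the authors' table move all genes by 1 constant, so they cannot change a difference of medians. The filter settings and kept flagged spots left that of inducible and constitutive members as it was. The difference of the medians of inducible and constitutive members stayed between -0.09 and -0.07 in these 12. It was -0.44 with Hsp90aa1 counted as constitutive, -0.44 without Cryab, -0.55 with means and -0.07 without Hspa1a; the means weigh Hspa1a and Hspb1 fully, and both values of -0.44 rest on medians of 4 inducible genes. The count of other chaperone genes past 1.5-fold was 0 in 10 of the 12; it was 1 with spike-in centring (Hspa1l, 0.63) and 1 without the filter on dim probes (Odf1, at -0.66 and not well above background on both arrays). Over all genes, 201 were 1.5-fold higher and 107 lower in the female pool, against 37 and 33 with normexp, 50 and 38 without background correction, 42 and 40 in the brighter 50% of probes and 1134 and 513 without the filter. No paired analysis was possible because a single array stands for each sex, which leaves nothing to pair and no test. Dim signal limits genes such as Hspa1l, Ern1 and Hsbp1l1: over probes with repeated spots in the dimmest quartile the median SD of the difference was 0.22.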

Other observations

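Some chaperone genes known for other roles were chosen after their values were seen. Fkbp5, an HSP90 co-chaperone that glucocorticoids induce, read 77.0 in the female and 65.5 in the male pool, a difference of 0.23. Hspa2, an HSP70 best known from male germ cells, read 12.3 in the female and 10.4 in the male pool, a difference of 0.25. Cirbp and Rbm3, which encode cold-inducible RNA-binding proteins and stand on the HSF1 list, were at -0.14 and -0.10. Serpinh1, the collagen chaperone HSP47, read 80.4 in the female and 87.6 in the male pool, a difference of -0.12 with both probes below 0. None of these was past 1.5-fold.

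Of the 6 genes with at least 2 probes and every probe 1.5-fold lower in the female pool, the others beside Hspa1a were Il17re, Calca, Wfdc1, Csap1 and Hbb-b1, whose probes nearest to 0 were at -1.31, -1.15, -1.04, -1.02 and -0.69.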
